A study of Mus musculus with 6 samples.

Results

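Genes of the Wnt system were followed in the granule cell layer of the adult mouse dentate gyrus (DG) after loss of the zinc finger transcription factor Bcl11b/Ctip2. The members were all genes of the array annotation named Wnt, Fzd, Sfrp, Dkk or Rspo with a digit after the name, together with Lrp5, Lrp6 and Wif1. This gave 45 of the 19938 genes tested, of which 44 code for proteins and 1, Fzd10os, is a long non-coding transcript from the strand opposite Fzd10. They comprise 19 Wnt ligands, 10 frizzled receptors, 2 Lrp co-receptors, 4 R-spondins and 9 secreted antagonists.

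Mutant mice carried Bcl11b flox/flox alleles with tetO-Cre and CaMKIIα-tTA, the tet-off system, in which Cre appears once doxycycline is withdrawn. Doxycycline kept Cre off before birth and up to an age of 2 months, given with the drinking water, and tissue was taken 4 weeks after its removal. The sources used here do not give the alleles of the control mice of this line. The CaMKIIα promoter is active in excitatory neurons of the forebrain in general, so that the deletion is not limited to granule cells. RNA of laser-captured granule cell layer from 3 control and 3 mutant samples was hybridized to 1-colour Affymetrix whole-transcript arrays, and values are log2 expression made by RMA.

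Wnt proteins are lipid-modified secreted signals that bind frizzled receptors at the cell surface. With Lrp5 or Lrp6 as co-receptor they stabilize beta-catenin, which then acts with TCF/LEF factors on transcription, whereas other branches act on cell polarity, the cytoskeleton and calcium. Secreted frizzled-related proteins (Sfrp) and Wif1 bind the ligands, Dickkopf proteins (Dkk) act mainly on the co-receptors, and R-spondins raise the amount of receptor at the surface. In the hippocampus Wnt signals are known for their part in DG development, in adult neurogenesis and in the formation of synapses, mossy fiber synapses among them.

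Bcl11b itself (probe set 10402554) read 10.56, 10.40 and 10.30 in controls 1, 2 and 3 and 9.03, 8.68 and 8.82 in mutants 1, 2 and 3, so that every mutant array lay below every control array. The log2 change was -1.58 (SE 0.099). The sources used here do not say whether its probes fall within the deleted stretch. Of 12 markers of granule cells listed, 11 were measured, with mean log2 levels of 9.39 or more, above the array medians of 6.29 to 6.36. The log2 of their summed signal was 15.002 to 15.04 in controls and 14.40 to 14.47 in mutants, and 6 of them were lower, whereas the granule cell factor Prox1 was not past the threshold (limma adjusted p = 0.788). In the same measure the lists of astrocytes (13.59 to 13.73 in controls, 13.78 to 13.90 in mutants, 2 of 12 higher), of stem, progenitor and immature cells (11.11 to 11.28 and 11.44 to 11.56, 2 of 13 higher), of interneurons (12.66 to 13.01 and 13.13 to 13.29, 1 of 12 higher and 2 lower) and of mossy cells (11.10 to 11.14 and 11.19 to 11.26, 2 of 7 higher) were higher in every mutant. The list of meninges and fibroblasts was lower in every mutant (9.69 to 10.44 and 9.46 to 9.50, 3 of 10 lower). Lists of pyramidal cells (12.88 to 13.00 and 13.00 to 13.05, 3 of 11 higher and 2 lower), of endothelium and pericytes (10.12 to 10.26 and 10.23 to 10.50, 2 of 12 higher), of microglia (10.56 to 11.05 and 10.54 to 10.71, 1 of 11 lower) and of oligodendrocytes (11.55 to 11.67 and 11.44 to 11.64, 11 of 11 not past the threshold) overlapped between the groups. Over all genes tested 9.23% were higher and 5.93% lower, 15.2% in all. Shares near this were those of stem, progenitor and immature cells (15.4%), astrocytes (16.7%) and endothelium and pericytes (16.7%). The share was 54.5% for granule cells, 45.5% for pyramidal cells, 30% for meninges and fibroblasts, 28.6% for mossy cells, 25% for interneurons and 9.09% for microglia. Several of the list sums rest on 1 gene, as an alternative chosen after seeing the data showed. Without Cck, which rose by 1.56, the summed signal of the other 11 interneuron markers was lower in every mutant (12.18 to 12.46 in controls and 12.09 to 12.16 in mutants). Of single markers only Gad1 and Npy passed as lower. The groups overlapped for astrocytes without Slc1a2, for mossy cells without Ociad2, for stem, progenitor and immature cells without Dcx and for meninges and fibroblasts without Ogn. Pyramidal cells were higher in every mutant without Fibcd1, Mpped1, Lct, Nr3c2 or Spock1, and endothelium and pericytes without Cldn5. Without Bok, which rose by 1.90, the most of the pyramidal markers, the pyramidal sums overlapped at 12.83 to 12.95 in controls and 12.80 to 12.85 in mutants. The part of these shifts in the values of the Wnt genes was not tested. Most of the mossy cell sum came from Ap2s1, at 10.46, 10.51 and 10.54 in controls and 10.53, 10.47 and 10.50 in mutants. Without Ap2s1 the mossy cell sums were 9.49 to 9.73 in controls and 9.85 to 9.97 in mutants. Lct and Nr3c2, the highest pyramidal markers, read 11.27 to 11.46 and 11.27 to 11.42 in controls. Whether these 2 lists report cells of their type was not tested. In a captured layer fewer cells of a type, less RNA per cell and lower expression of single markers cannot be told apart. The 6 lower granule cell markers were C1ql2, Trpc6, Calb1, Dsp, Stxbp6 and Rfx3. Of these, the paper calls desmoplakin (Dsp, log2 change -0.81) a direct target of Bcl11b/Ctip2 and proposes direct binding at the C1ql2 promoter (C1ql2, -3.29). How far such regulation enters the granule cell sum was not tested.

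Of the 45 members, 9 changed in the mutant, with 7 higher and 2 lower. This is 20% of the members, beside 15.2% of all genes tested, and 15.6% against 9.23% for higher and 4.44% against 5.93% for lower. Among genes with a mean at or above 7.06, the median level of all genes, 5 of 12 members changed (41.7%), beside 25% of 9969 genes. With so few members these shares are given as a description. The ligands Wnt3, Wnt16, Wnt5a and Wnt7b, the receptor Fzd7, the co-receptor Lrp5 and the secreted glycoprotein Dkk3 rose, whereas the receptor Fzd9 and the R-spondin Rspo3 fell. Fzd9 was lost without control 2 or 3, Rspo3 without mutant 3 and both without mutant 1 or mutant 2, whereas without control 1 Dkk4 and Wif1 were lower as well, 4 in all. In each of the 9 the control and mutant arrays did not overlap, which was also so for 4 members that did not pass, 13 of 45 in all (28.9%, beside 31.6% of all genes). The median change over the members was 0.020 on the log2 scale, beside -0.0027 over all genes.

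**Figure D1:**
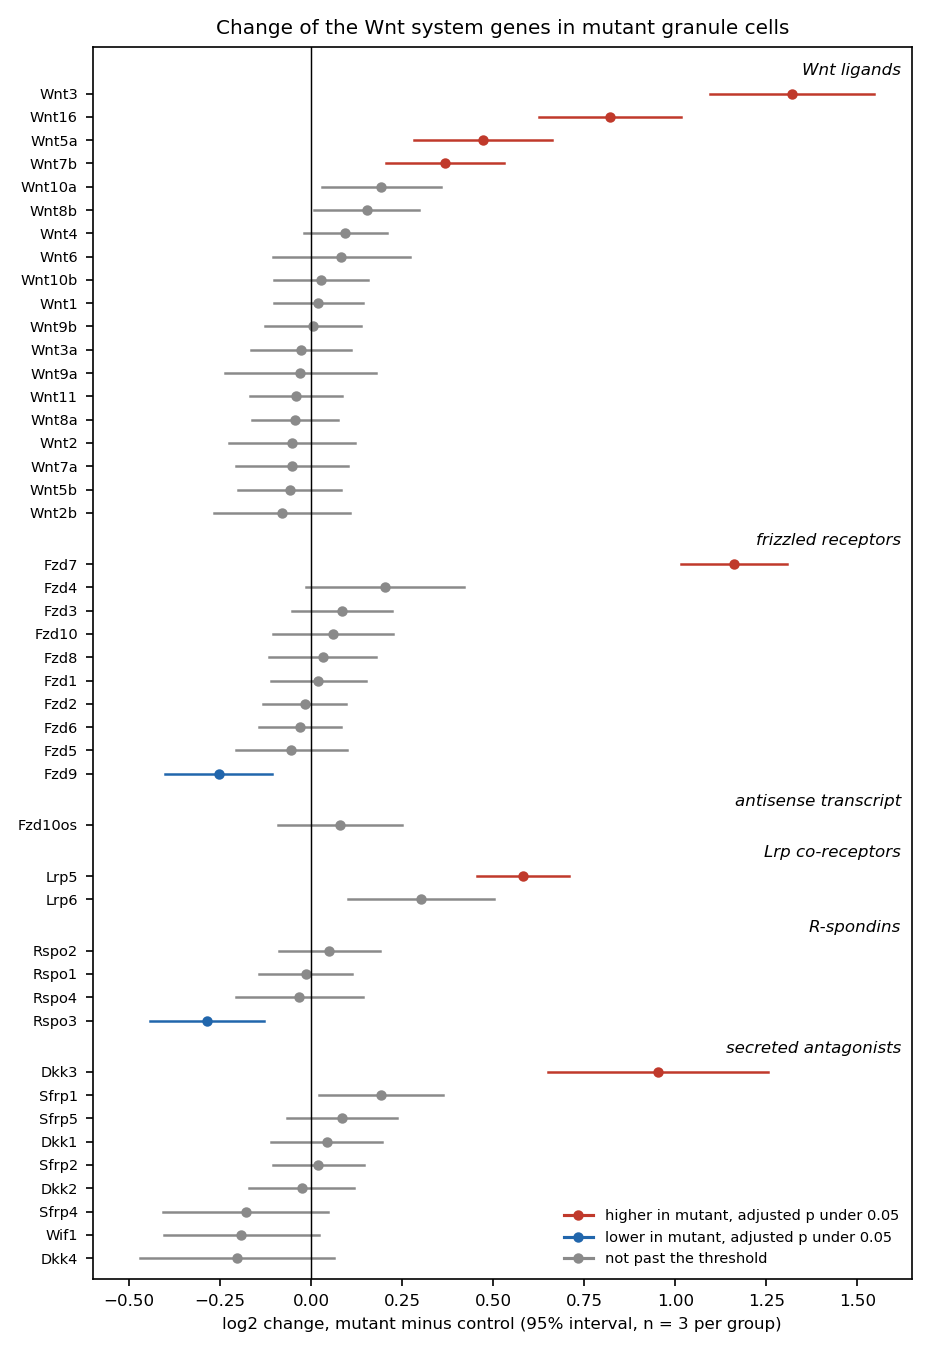
Log2 change of each of the 45 members, mutant minus control, on the horizontal axis, ordered within each role. Points are changes from limma and bars their 95% intervals (n = 3 per group), in red or blue where the adjusted p was under 0.05. Wnt3 at 1.32, Fzd7 at 1.16, Dkk3 at 0.95 and Wnt16 at 0.82 stand to the right, whereas most members lie close to 0.

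Wnt3, a ligand of the beta-catenin branch that astrocytes and other cells of the DG niche can release, was among the members that rose. Its probe set (10381738) read 6.13, 6.17 and 6.27 in controls 1, 2 and 3 and 7.56, 7.68 and 7.28 in mutants 1, 2 and 3. Control values lay under the array medians, where they are not shown to be above background, and each mutant value was above them by about 1 or more. From 6.19 ± 0.074 (SD, n = 3) in controls it rose to 7.51 ± 0.21 (SD, n = 3) in mutants, which is 1.32 higher on the log2 scale as measured (standard error, SE, of 0.099 and limma adjusted p = 6.47e-05). Because a background signal in controls can hide a lower level, the size of this change is not exact and may be larger.

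Wnt16 (probe set 10536658), a ligand best known from bone and blood stem cells, read 6.40, 6.65 and 6.47 in controls and 7.24, 7.27 and 7.47 in mutants. The lowest mutant array was clearly above the highest control array. Its log2 change was 0.82 (SE 0.086, limma adjusted p = 3.64e-04).

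Wnt5a (probe set 10413482), the prototype of ligands that act without beta-catenin, read 6.23, 6.34 and 6.46 in controls and 6.72, 6.96 and 6.76 in mutants. Wnt7b (probe set 10431210), a ligand known to promote dendrite growth in hippocampal neurons, read 8.14, 8.32 and 8.28 in controls and 8.72, 8.57 and 8.55 in mutants. Both were higher in every mutant array, with gaps between the groups of a similar size to the spread within them. Log2 changes were 0.47 for Wnt5a (SE 0.083, limma adjusted p = 0.00566) and 0.37 for Wnt7b (SE 0.072, limma adjusted p = 0.00923). Control values of Wnt5a lay around the array medians of 6.29 to 6.36, where they are not shown to be above background. With the unmoderated test that the methods name (the methods' t-test) neither passed after Benjamini-Hochberg adjustment (adjusted p = 0.0905 and 0.0909), whereas Wnt3 and Wnt16 did (0.0273 and 0.0386).

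The other 15 ligands did not pass the test, with changes between -0.080 for Wnt2b and 0.19 for Wnt10a. Wnt10a (probe set 10347497) read 7.43, 7.69 and 7.55 in controls and 7.79, 7.70 and 7.75 in mutants, and Wnt8b (probe set 10463371) read 5.38, 5.50 and 5.31 in controls and 5.59, 5.51 and 5.55 in mutants. In both genes the mutant arrays stood above the controls by a margin smaller than the spread among controls (limma adjusted p = 0.118 and 0.157). Wnt4 was measured by 2 probe sets, of which 10509273 was used and read 7.51, 7.51 and 7.47 in controls and 7.59, 7.63 and 7.56 in mutants. The changes by its 2 probe sets were 0.094 and 0.090, neither passed, and the groups overlapped in the other probe set. Wnt9a, at 7.21, 7.59 and 7.47 in controls and 7.37, 7.44 and 7.37 in mutants, and Wnt3a, at 6.93, 7.02 and 7.10 and 6.97, 6.97 and 7.02, lay with their mutants inside the range of the controls. Of the 15 ligands, 6 had both group means under the lowest array median: Wnt1, Wnt2, Wnt2b, Wnt8a, Wnt8b and Wnt11. Wnt5b, Wnt6, Wnt7a, Wnt9b and Wnt10b make up the rest.

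**Figure D2:**
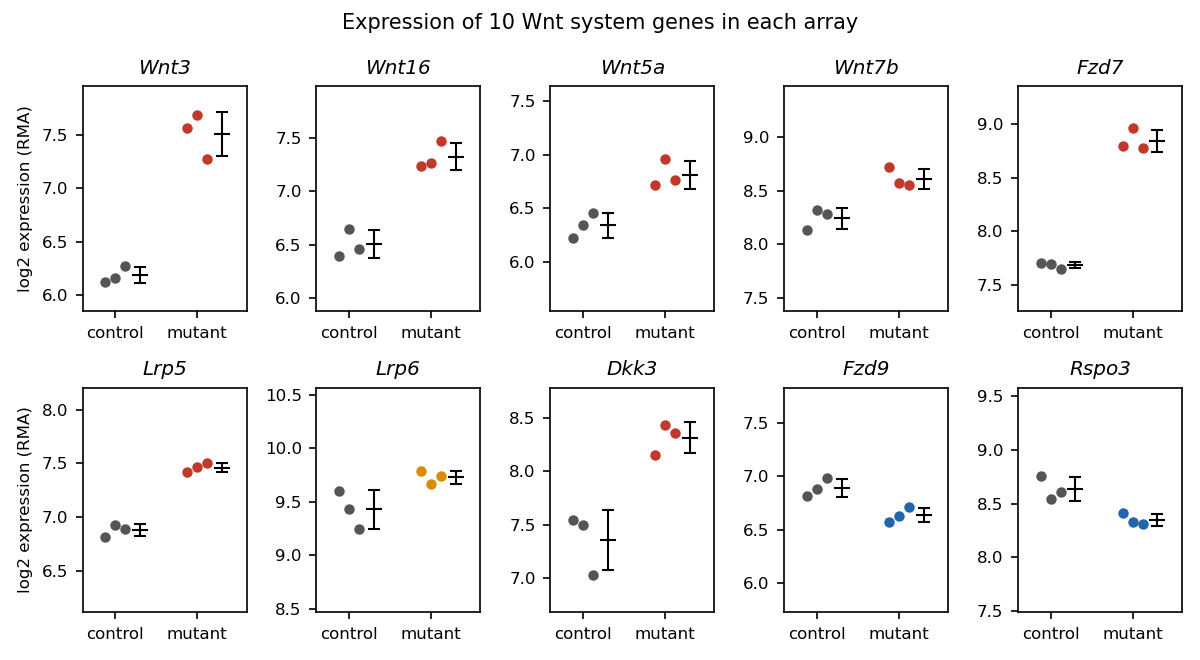
Log2 expression on the vertical axis of the 9 members that changed and of Lrp6, which did not pass, in each array. Dots are arrays 1, 2 and 3 from left to right, black bars the mean and SD (n = 3 per group), and every panel spans the same range. The groups are apart in each panel, widely in Wnt3, Fzd7 and Dkk3 and narrowly in Lrp6.

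Among the 10 frizzled receptors, which are seven-pass membrane proteins with an extracellular Wnt-binding domain, Fzd7 rose. Its probe set (10346607) read 7.71, 7.70 and 7.65 in controls and 8.80, 8.97 and 8.78 in mutants. The controls were tightly grouped and all mutants were higher by more than 1 on the log2 scale. Fzd7 changed by 1.16 (SE 0.064, limma adjusted p = 1.28e-05), the smallest p of the 45 members, which is a 2.24-fold increase.

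Fzd9, a receptor encoded in the region deleted in Williams syndrome and expressed in hippocampal progenitors, went the other way. It read 6.81, 6.88 and 6.98 in controls and 6.57, 6.63 and 6.71 in mutants (probe set 10534426). The decrease was small, a log2 change of -0.25 (SE 0.064, limma adjusted p = 0.0300). It did not pass without control 2 (adjusted p = 0.0879), control 3 (0.0805), mutant 1 (0.120) or mutant 2 (0.0973), nor with the methods' t-test (0.121).

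The other 8 frizzled receptors did not pass, with changes between -0.054 for Fzd5 and 0.20 for Fzd4. Fzd4, at 6.55, 6.32 and 6.27 in controls and 6.65, 6.41 and 6.69 in mutants, had an limma adjusted p = 0.214, and 0.0385 without control 1. Fzd3 (probe set 10420846), needed for axon growth and guidance in the forebrain, read 9.98, 9.90 and 9.81 in controls and 10.003, 9.998 and 9.933 in mutants. Fzd8 read 8.67, 8.58 and 8.50 in controls and 8.62, 8.68 and 8.54 in mutants, and Fzd1 read 7.64, 7.78 and 7.70 in controls and 7.75, 7.75 and 7.68 in mutants. In these 3 receptors control and mutant arrays overlapped. Fzd2, Fzd5, Fzd6 and Fzd10 changed by between -0.054 and 0.061. The antisense transcript Fzd10os read 5.65, 5.81 and 5.86 in controls and 5.96, 5.80 and 5.80 in mutants, under the array medians as Fzd10 was.

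Lrp5 and Lrp6, the co-receptors that recruit Axin to the membrane when a Wnt is bound, were both higher in every mutant array. Lrp5 (probe set 10464504) read 6.82, 6.93 and 6.89 in controls and 7.42, 7.46 and 7.50 in mutants, with small spreads in both groups. It rose by 0.58 on the log2 scale (SE 0.056, limma adjusted p = 2.21e-04). Lrp6 (probe set 10548701) read 9.60, 9.43 and 9.25 in controls and 9.79, 9.67 and 9.74 in mutants. Its change of 0.30 (95% interval 0.10 to 0.50) did not pass (limma adjusted p = 0.0510), and control 1 lay close to the mutants. Without control 1 it was 0.39 (adjusted p = 0.00445), and with the replicate number as a block it also passed (adjusted p = 0.0300).

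Promoter sequences are shown for Wnt3, Wnt16, Fzd7 and Fzd9, the 4 of the 9 changed members matched to the RefSeq promoter windows (GRCm38.p6), because 3 of them rose and 1 fell. Each is the 250 bases before the annotated start of transcription, and capitals mark TGGGC or its reverse complement GCCCA, the core that the study takes as a putative Bcl11b/Ctip2 site. Wnt3 lies at chr11:103773925-103774174 on the plus strand, Wnt16 at chr6:22287977-22288226 on the plus strand, Fzd7 at chr1:59481897-59482146 on the plus strand and Fzd9 at chr5:135251048-135251297 on the minus strand.
Wnt3: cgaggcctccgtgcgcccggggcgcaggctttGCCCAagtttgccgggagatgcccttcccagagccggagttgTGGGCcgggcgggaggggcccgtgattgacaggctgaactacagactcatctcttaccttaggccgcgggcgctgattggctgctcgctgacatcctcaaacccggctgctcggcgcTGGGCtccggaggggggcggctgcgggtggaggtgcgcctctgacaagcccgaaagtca
Wnt16: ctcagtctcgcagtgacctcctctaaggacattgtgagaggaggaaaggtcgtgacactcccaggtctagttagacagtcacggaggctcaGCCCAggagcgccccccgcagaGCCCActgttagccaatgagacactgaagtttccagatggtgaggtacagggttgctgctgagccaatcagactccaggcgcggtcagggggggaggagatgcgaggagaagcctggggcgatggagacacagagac
Fzd7: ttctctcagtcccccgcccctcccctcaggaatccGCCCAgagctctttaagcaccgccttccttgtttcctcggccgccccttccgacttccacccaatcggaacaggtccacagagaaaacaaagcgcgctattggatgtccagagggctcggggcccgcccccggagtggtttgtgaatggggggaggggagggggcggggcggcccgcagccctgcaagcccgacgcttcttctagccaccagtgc
Fzd9: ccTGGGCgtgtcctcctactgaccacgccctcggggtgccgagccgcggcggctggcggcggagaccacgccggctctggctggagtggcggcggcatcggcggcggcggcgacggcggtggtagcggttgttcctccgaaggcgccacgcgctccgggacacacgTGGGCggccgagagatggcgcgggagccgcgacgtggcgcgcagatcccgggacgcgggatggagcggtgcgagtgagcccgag
The motif was searched on both strands and was found 3 times before Wnt3, 2 times before Wnt16, 1 time before Fzd7 and 2 times before Fzd9, so that it occurs before genes that rose and before the gene that fell. Of all 32851 windows of this length, 50.7% hold at least 1 match, 19.2% at least 2 and 5.68% at least 3. The 4 windows are rich in G and C, with 68% for Wnt3, 59.2% for Wnt16, 65.2% for Fzd7 and 76.4% for Fzd9. Such a match is a description of the letters and shows no binding. The paper found the motif in the C1ql2 promoter region but not in that of Sema5B, and reports enrichment of Bcl11b/Ctip2 at both.

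Secreted modulators changed at 1 antagonist and 1 R-spondin. Dkk3 (probe set 10567010), a Dickkopf family member that neurons express and whose action on Wnt signals is less settled than that of Dkk1, read 7.54, 7.49 and 7.03 in controls and 8.15, 8.43 and 8.36 in mutants. Control 3 lay well below the other controls and all mutants lay above. Its mean of 7.36 ± 0.28 in controls became 8.31 ± 0.15 in mutants (SD, n = 3 each), a difference of 0.95 on the log2 scale (SE 0.13, limma adjusted p = 0.00167), and of 0.79 without control 3. The control SD was the largest of the 45 members, and with the methods' t-test Dkk3 did not pass (adjusted p = 0.0746).

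Rspo3 (probe set 10368495), which raises Wnt receptor levels by binding Lgr receptors and the ubiquitin ligases Rnf43 and Znrf3, read 8.76, 8.54 and 8.60 in controls and 8.41, 8.33 and 8.31 in mutants. Each mutant array was below each control array by a narrow margin. Its log2 change was -0.29 (SE 0.069, limma adjusted p = 0.0247). It did not pass without mutant 1 (adjusted p = 0.0510), mutant 2 (0.0888) or mutant 3 (0.0999), after centring on array medians (0.0512) or with the methods' t-test (0.128). Rspo1, Rspo2 and Rspo4 changed by between -0.032 and 0.050.

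Of the 9 secreted antagonists, 8 did not pass, with changes between -0.20 for Dkk4 and 0.19 for Sfrp1. Sfrp1 (probe set 10570957), which binds Wnt proteins, read 6.90, 6.75 and 6.84 in controls and 7.10, 7.09 and 6.87 in mutants, where mutant 3 lay among the controls (limma adjusted p = 0.135). Wif1 read 5.28, 5.67 and 5.40 in controls and 5.25, 5.22 and 5.29 in mutants, and Sfrp4 read 5.45, 5.11 and 5.39 in controls and 5.02, 5.27 and 5.12 in mutants. Both had wider control than mutant values, and Wif1 had an limma adjusted p = 0.233, and 0.0376 without control 1. Dkk1, the best known inhibitor of Lrp5 and Lrp6, changed by 0.043. Together with Wif1 and Sfrp4, the genes Dkk2, Dkk4, Sfrp2 and Sfrp5 lay under the array medians in both groups.

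For the members that did not pass, the arrays set limits to the change. In 35 of these 36 genes the 95% interval lay within -0.5 and 0.5 on the log2 scale, a fold of 1.41 either way, and in 26 within -0.25 and 0.25. The exception was Lrp6, with an upper bound of 0.503. Over the 45 members the median SD between arrays was 0.096 in controls and 0.055 in mutants. A total of 16 members had both means under the lowest array median of 6.29, and none of the 9 changed genes was among these 16. Control means of Wnt3, Wnt5a and Wnt16 were 6.19, 6.34 and 6.51, under or near the array medians. A low signal on this array can be background, so that small intervals there do not show a stable transcript.

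Closely related members were set against each other within each array, which takes out what both share. Wnt3 rose relative to Wnt3a by 1.35 (SE 0.14), Wnt5a relative to Wnt5b by 0.53 (0.091) and Wnt7b relative to Wnt7a by 0.42 (0.11), each on the log2 scale. The receptor Fzd7 rose relative to its nearest relatives Fzd1 and Fzd2 by 1.14 (0.066) and 1.18 (0.070), whereas Fzd1 and Fzd2 differed from each other by 0.038 (0.042). In these 5 pairs all mutant arrays had a higher ratio than all control arrays. This was also so for Wnt8b relative to Wnt8a, by 0.20 (0.062), and the reverse held for Fzd9 relative to Fzd10, with -0.31 (0.11). Fzd10 and the Wnt8 genes lay under the array medians. For Lrp5 relative to Lrp6 the difference was 0.28 (0.14) and the groups overlapped. Of 14 pairs compared, 7 did not overlap, each with p = 0.1 in the exact permutation test, two-sided, the smallest p that 3 arrays against 3 can give (0.2 when adjusted over the 14 pairs). The other 7 pairs had an exact p between 0.2 and 0.9. The pairs were chosen after the values were seen, and most that did not overlap hold a member already found changed. Their separation and p-values are therefore a description and add no support to the changes of single members.

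**Figure D3:**
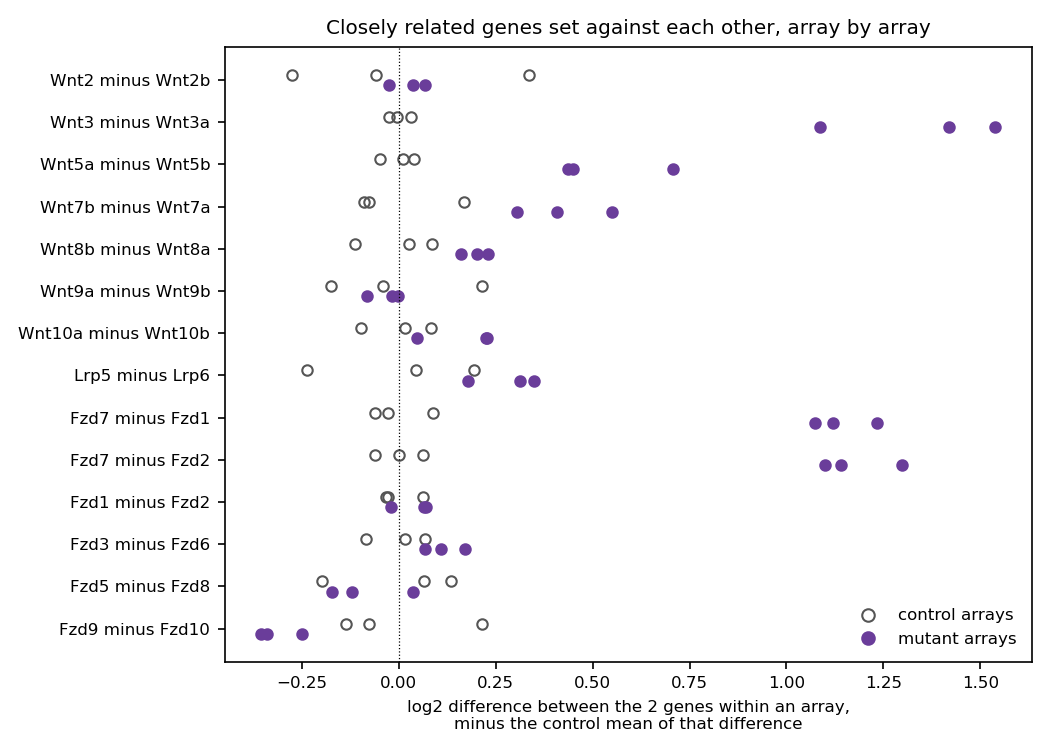
Difference in log2 expression between 2 closely related genes within each array, minus the control mean of that difference, plotted horizontally. Control arrays are open circles and mutant arrays filled circles (n = 3 per group). Fzd7 stands apart from both Fzd1 and Fzd2 by over 1 in every mutant, Wnt3 from Wnt3a likewise, and 7 of the 14 pairs overlap.

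Some members lie next to each other in the genome. By the order of protein-coding genes in RefSeq (GRCm38.p6), 4 pairs of members are direct neighbours, all of them Wnt ligands. In the pair of Wnt3 and Wnt9b, Wnt3 rose by 1.32 whereas Wnt9b changed by 0.0050 (limma adjusted p = 0.975), with values of 6.69, 6.67 and 6.81 in controls and 6.69, 6.74 and 6.76 in mutants. In the pairs of Wnt6 and Wnt10a, Wnt3a and Wnt9a, and Wnt1 and Wnt10b neither neighbour passed.

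Beyond the members, 7 lists of other genes of the pathway were described, with 112 of 116 listed symbols measured. Of these 112 genes, 26 were higher and 10 lower, 32.1% in all beside 15.2% of all genes. With only genes at or above the median level fitted, 35 of 81 passed, beside 27.6% of 9969 genes. By list the share in the main fit was 36.4% for antagonists, 30.8% for secretion and turnover, 35.7% for non-canonical genes and 25% for cytoplasmic genes. It was 41.2% for nuclear effectors, 33.3% for beta-catenin targets and 23.5% for the calcium branch. The lists were written from general knowledge, with earlier results of these arrays known, so that their counts are a description. With the methods' t-test 16 of the 36 passed, and 17 of all 112, beside 5.72% of all genes. Among the 17 were 3 cytoplasmic, 2 non-canonical and 2 secretion genes. With array weights 16 cytoplasmic and 8 non-canonical genes passed, beside 27.7% of all genes. Of all genes 22.5% passed without control 1 and 9.46% to 12.5% without any other array, and list counts by setting are to be read beside these shares.

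Among the other extracellular antagonists Sostdc1 had the largest change of the 112 genes. Of the 11 measured antagonists 4 were higher and 7 did not pass, with a median change of 0.056. Sostdc1, which is secreted, binds Lrp co-receptors and opposes Wnt and BMP signals, read 7.52, 7.13 and 7.15 in controls and 9.91, 9.98 and 9.96 in mutants, a log2 change of 2.69 (SE 0.099). Frzb, a secreted frizzled-related protein left out of the members by its name alone, read 8.25, 8.57 and 8.74 in controls and 9.80, 9.87 and 10.12 in mutants, a log2 change of 1.41 (SE 0.13, limma adjusted p = 1.64e-04). In both the gap between the groups was larger than the range of the controls. Apcdd1, a membrane-bound inhibitor of Wnt signals, rose by 0.75 and Kremen1, a receptor for Dkk proteins, by 0.37. The count was 4 without each array in turn and 2 with the methods' t-test, which left Apcdd1 and Kremen1 out (adjusted p = 0.0501 and 0.0533).

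Genes of Wnt secretion and surface turnover changed both ways, with 2 of 13 higher and 2 lower and a median of 0.036. Porcn, the enzyme that attaches the lipid to Wnt proteins, read 10.63, 10.52 and 10.45 in controls and 11.16, 11.24 and 11.22 in mutants, a log2 change of 0.67 (SE 0.062, limma adjusted p = 1.76e-04). Lgr4, a receptor for R-spondins, read 9.17, 9.07 and 9.03 in controls and 8.41, 8.57 and 8.33 in mutants, a log2 change of -0.66 (SE 0.072, limma adjusted p = 4.82e-04). Both Lgr4 and its ligand Rspo3 were lower, but Rspo3 did not pass without mutant 1, 2 or 3. The related receptors Lgr5 and Lgr6 changed by 0.036 and 0.19, and neither passed. A link between the 2 decreases was not tested. Gpc3 and Gpc4 are glypicans, cell surface proteoglycans that bind Wnt proteins. Gpc3 rose by 1.18 with a wide spread in both groups (SD 0.44 and 0.35), and Gpc4 had a log2 change of -0.24. Gpc4 did not pass without control 2, mutant 2 or mutant 3 (adjusted p up to 0.132).

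Among 14 receptors and planar polarity genes that act without beta-catenin, 2 were higher and 3 lower, with a median of 0.061. The polarity protein Vangl1 read 6.88, 6.80 and 7.08 in controls and 8.21, 8.17 and 8.25 in mutants and rose by 1.29 (SE 0.075, limma adjusted p = 1.78e-05). Its relative Vangl2 read 9.36, 9.12 and 8.81 in controls and 8.66, 8.64 and 8.66 in mutants and had a log2 change of -0.44. The Wnt5a receptor Ror1 had a log2 change of -0.54, the Wnt receptor Ryk of -0.18 and Daam1, which links Dishevelled to actin, of 0.47. Vangl2 and Ryk did not pass without control 2 or without mutant 1, 2 or 3, nor did Ryk without control 3 (adjusted p up to 0.117 and 0.128). The count of 5 was 3 without control 2 and without mutant 1, 2 or 3, and also 3 after centring on array medians.

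Of 28 cytoplasmic transducers and members of the beta-catenin destruction complex, 7 were higher and 21 did not pass, with a median of 0.13. This is 25%, beside 15.2% of all genes and 25% of genes at or above the median level. With genes of that level fitted alone, 7 of 27 passed, beside 27.6% of 9969 genes, so that the count is near the background. The changes were modest, from 0.23 for Ctnnb1, which encodes beta-catenin, to 0.61 for the Dishevelled partner Dact1. Frat2, which binds Gsk3, rose by 0.58 (limma adjusted p = 0.00104), and the scaffold Apc and its partner Amer1 rose by 0.41 and 0.30. The Dishevelled protein Dvl3 rose by 0.39 and the kinase Csnk1e by 0.27. Ctnnb1 read 12.29, 12.34 and 12.29 in controls and 12.59, 12.51 and 12.51 in mutants, and did not pass without mutant 1, 2 or 3 (adjusted p up to 0.0823). The call was also lost for Dact1 without mutant 1 or 3 (up to 0.0556), for Dvl3 without control 2 or mutant 1, 2 or 3 (up to 0.113) and for Csnk1e without control 2 or 3 or mutant 1, 2 or 3 (up to 0.0996). The count of 7 was 14 without control 1, where 22.5% of all genes passed. It was 4 without mutant 2 and 3 without mutant 1 or mutant 3, where 9.46% to 9.8% of all genes passed.

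Nuclear effectors included 5 of 17 higher and 2 lower, with a median of 0.095. The corepressor Tle1 read 9.81, 9.65 and 9.68 in controls and 9.02, 8.99 and 8.94 in mutants and had a log2 change of -0.73 (SE 0.060, limma adjusted p = 1.07e-04), whereas its relative Tle3 rose by 0.63 and Tle2 by 0.21. The beta-catenin cofactors Bcl9 and Bcl9l rose by 0.60 and 0.46, the corepressor Ctbp2 by 0.30, and Pygo1 had a log2 change of -0.24. Calls of Bcl9 (without control 2, mutant 1 or mutant 2), Bcl9l (without mutant 2), Pygo1 (without control 2, mutant 1 or mutant 3), Ctbp2 (without control 2 or mutant 1, 2 or 3) and Tle2 (without control 2 or 3 or mutant 1, 2 or 3) were lost, with adjusted p up to 0.151. The count of 7 was 3 without control 2, mutant 1 or mutant 2 and 4 without mutant 3, and 1 with the methods' t-test.

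Genes often used as readouts of beta-catenin moved in both directions, with 4 of 18 higher, 2 lower and a median of 0.058. The cyclin Ccnd2 read 10.25, 10.06 and 10.06 in controls and 11.67, 11.70 and 11.66 in mutants and rose by 1.56 (SE 0.065, limma adjusted p = 3.13e-06). Apcdd1, counted here as well, the receptor Tnfrsf19 and the transcription factor Neurod1 rose by 0.75, 0.44 and 0.34. Bambi, a pseudoreceptor of the TGF-beta family, read 10.19, 10.25 and 10.17 in controls and 9.45, 9.34 and 9.51 in mutants and had a log2 change of -0.77, and Myc had one of -0.34. Axin2, the target in widest use and named here after its value was seen, changed by 0.19 (limma adjusted p = 0.190), from 7.97 ± 0.17 to 8.16 ± 0.054 (SD, n = 3 each). Several of these genes have other regulators in neurons, and the list does not measure Wnt activity. The counts of 4 and 2 were found without each array in turn, except without control 1, where 6 were higher and 2 lower.

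In the calcium branch 3 of 17 genes were higher and 1 lower, with a median of 0.0020. The protein kinases C Prkcb and Prkca rose by 0.63 and 0.39 and the calcium-responsive factor Nfatc3 by 0.33. Camk2d, a subunit of the calcium/calmodulin-dependent kinase, read 9.73, 9.35 and 9.70 in controls and 8.35, 8.30 and 7.78 in mutants, a log2 change of -1.45 (SE 0.16, limma adjusted p = 4.33e-04). Mutant 3 was the lowest array and control 2 the lowest control, and the groups did not overlap. Without mutant 1 Prkca did not pass (adjusted p = 0.0621).

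**Figure D4:**
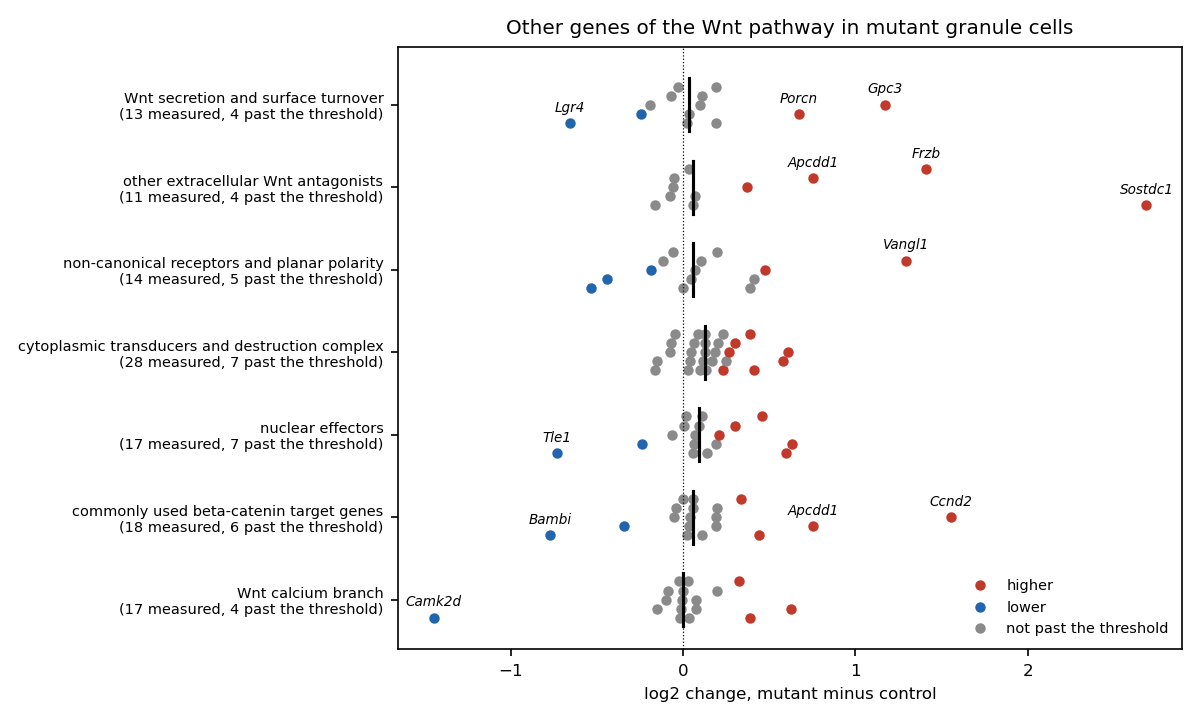
Log2 change, mutant minus control, on the horizontal axis of each measured gene in 7 lists of the Wnt pathway. Points are genes, in red or blue where the adjusted p was under 0.05, black lines are list medians, and names are given for changed genes beyond 0.65 in size. Sostdc1 at 2.69 and Frzb at 1.41 lie farthest right among antagonists and Camk2d at -1.45 farthest left.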

How the data were processed

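The authors hybridized RNA of 3 control and 3 mutant samples to 1-colour arrays and deposited log2 expression values of 35556 probe sets. The submitters' processing notes name Affymetrix Expression Console and RMA, which corrects background, equalizes the distribution of the arrays and summarizes probes per probe set, which hides any shift shared by every gene. The sources used here give neither versions nor a genome build. The platform annotation pairs 21789 probe sets with 1 gene and 1621 with several, and leaves 12146 unlisted. The probe set with the highest mean was used for each of 19938 genes, and all 45 members matched RefSeq by Entrez number with the same symbol. No filter was applied. The comparison of mutants with controls used limma 3.58.1 (R 4.3.3) and no covariate. P-values were adjusted by Benjamini-Hochberg across all 19938 genes, and 0.05 was the threshold. The fit was run on simulated data with independent noise and no effects of single arrays, so that run does not cover such effects.

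Members and lists were chosen with earlier results of these data known, and the related pairs after the values were seen. Changed members are given in full, as are the 8 others with the smallest p and the 8 others with the highest mean, and at most 8 changed genes per list. Of 116 pathway symbols, 112 were measured and 4 were not analysed here. Levels of different probe sets do not rank transcripts. No source says that each array holds 1 animal, so p-values measure the spread between samples. The number of arrays limits the precision. Replicate numbers come from the sample titles. Deviations of same-numbered arrays had correlations of 0.16, -0.033 and 0.12, and no source says what the number marks, so arrays were not paired. No source gives a batch. The alternatives were the methods' t-test, array weights, removal of dim genes, a robust prior with a variance trend, other uses of the probe sets, 2 normalizations, the replicate block, 2 thresholds and leaving out each array, and, chosen after seeing the data, leaving each marker out of its list.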

Additional observations from a re-analysis of the deposited data

How the results depend on the processing

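Over all alternatives run the 9 members kept their direction, and Fzd7, Wnt3 and Wnt16 passed wherever they were tested, as did Lrp5 except at a fold of at least 1.5. Fzd9, Wnt3, Wnt5a and Wnt16 were not tested with the filter on dim genes. The count of 9 changed members was 4 with the methods' t-test after adjustment, 14 with array weights and 4 at a fold of at least 1.5, and 7 to 13 when an array was left out. Members higher were 7, and 4 with the methods' t-test and at that fold, 5 with the filter on dim genes and 10 with array weights. They were 8 with the robust prior, with a renewed quantile normalization and with the replicate block. Without control 1 they were 9, and without any other array 7. Members lower were 2, but 0 with the methods' t-test, at that fold and at an adjusted p under 0.01, 4 with array weights, 1 with the filter on dim genes, 1 after centring on array medians, and 0 to 4 without 1 array. Unadjusted p in limma was 0.00366 for Fzd9 and 0.00278 for Rspo3. All changed genes were 3023, and 1141 with the methods' t-test, 5527 with array weights, 1554 at an adjusted p under 0.01, 709 at a fold of at least 1.5, and 1886 to 4487 without 1 array. Without control 1 the members were 13, with Dkk4, Fzd4, Lrp6 and Wif1 added, while 22.5% of all genes changed. With the replicate block (paired arrays) 10 members passed, the 9 and Lrp6. Same-numbered arrays were best correlated in 4 of 6 arrays. Small changes that did not pass turned sign. Without 1 array Fzd8 changed by -0.011 (without control 3) to 0.075, with -0.0017 without mutant 2, Fzd1 by -0.013 (without control 1) to 0.057, Wnt9a by -0.14 to 0.053 (without control 2) and Wnt3a by -0.074 to 0.016 (without control 3). With array weights Fzd1 changed by -0.032. Of the 45 named genes that passed, members and pathway genes together, 30 did so without each array in turn and 20 with the methods' t-test. The cause of these shifts was not tested. The arrays carry no measure of detection, so changes of dim genes are uncertain in size.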
